A study of Mus musculus with 3 samples.

Results

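This account covers 10 genes of the anterior and intermediate pituitary in RNA from mouse brain vessels, out of 29787 genes with a matched transcript. They are 7 hormone genes (Prl, Gh, Cga, Fshb, Lhb, Tshb and Pomc), 1 hormone-releasing receptor gene (Gnrhr) and 2 genes of lineage transcription factors (Pou1f1 and Pitx1). The genes were chosen by name, and they were selected on the read counts and the uncovered transcript bases of these same 3 libraries, whose values were known when they were chosen. Their differences between the libraries are therefore given as a description, with no test.

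Brain vessels of mice aged 3 months gave the poly(A) RNA that was sequenced, with 1 library for each of 3 groups. The Cx43-deleted library came from hGFAP-Cre/Cx43fl/fl mice (genotype Cx43 -/-) on a C57BL6-BALB/c background, in which the human GFAP promoter, active in astroglia, drives the Cre that deletes the connexin 43 gene Gja1. The study set these mice against 2 WT backgrounds, and the other libraries came from WT mice of the C57BL6-BALB/c background and from C57BL6 WT mice. The number of animals behind each library, and their sex, were not given in the sources used here. By their labels, the Cx43-deleted and C57BL6-BALB/c WT libraries share a background, and the WT libraries share the genotype. With 1 library for each group there is no replicate check, and differences of animal or dissection cannot be told apart from those of genotype or background.

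The anterior pituitary is a gland below the hypothalamus whose endocrine cells each make mainly 1 kind of hormone. Lactotrophs make prolactin, somatotrophs growth hormone, thyrotrophs thyroid-stimulating hormone, gonadotrophs luteinising and follicle-stimulating hormone, and corticotrophs, together with the melanotrophs of the intermediate lobe, make pro-opiomelanocortin. The transcription factor PIT-1, product of Pou1f1, is needed for lactotrophs, somatotrophs and thyrotrophs, and Pitx1 acts early in the gland's development. Most of these hormone transcripts are abundant in the gland and scarce in the brain, while Pomc is also transcribed in neurons of the hypothalamus.

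The depth of the libraries was 54975610 reads for Cx43-deleted, 21170766 for C57BL6-BALB/c WT and 24830975 for C57BL6 WT. Gja1 had 2574 reads in the Cx43-deleted library, 4276 in C57BL6-BALB/c WT and 5138 in C57BL6 WT, and its level was lower in the Cx43-deleted library by log2 ratios of −2.07 to C57BL6-BALB/c WT and −2.05 to C57BL6 WT. All 8 brain endothelium markers, which define the labelled tissue, had reads in all 3 libraries. A level below is a normalised count (CPM) that adds up all transcripts of a gene, a read number is that of the most abundant transcript, and a fold is the ratio of those reads scaled to library depth, with an exact 95% interval. Intervals, and the floor of 3 reads that stands in for a count of 0, cover counting error only.

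Prl, Gh, Cga and Fshb had 140 to 933 reads in the C57BL6-BALB/c WT library and 0 to 19 reads in the Cx43-deleted and C57BL6 WT libraries. Across the 10 genes, the most abundant transcripts held 374 reads in the Cx43-deleted library, 2695 in C57BL6-BALB/c WT and 295 in C57BL6 WT, although the Cx43-deleted library was the deepest. The 7 hormone genes accounted for 353 of these in Cx43-deleted, 2666 in C57BL6-BALB/c WT and 286 in C57BL6 WT. In level, 9 of the 10 genes were highest in C57BL6-BALB/c WT, 1 (Pou1f1) in the Cx43-deleted library and 0 in C57BL6 WT. Counting error leaves the place of Tshb and Pou1f1 open. Their ratios of Cx43-deleted to C57BL6-BALB/c WT were 0.787 (0.390 to 1.67) for Tshb and 1.28 (0.395 to 5.39) for Pou1f1. How often a measured gene was highest in each library was not counted. The genes were also chosen with these values known, so nothing is read from this count. In RNA from a bulk tissue, fewer cells of a type and less RNA per cell cannot be told apart.

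The promoters of Prl, Cga and Fshb are shown because these genes had the widest gaps between the libraries among those with a sequence entry. Entries of the RefSeq promoter table (build GRCm38.p6) matched 8 of the 10 genes, and Gh and Pitx1 had none. Each line holds the 250 bases before the annotated start, 5′ to 3′ on the strand of the gene, at chr13:27057320-27057569 (plus strand) for Prl, chr4:34893529-34893778 (plus strand) for Cga and chr2:107059652-107059901 (minus strand) for Fshb. Capitals mark TATNCAT on either strand, a short form of the POU1F1 motif, and TATAAA, the TATA box, on the strand of the gene.
Prl: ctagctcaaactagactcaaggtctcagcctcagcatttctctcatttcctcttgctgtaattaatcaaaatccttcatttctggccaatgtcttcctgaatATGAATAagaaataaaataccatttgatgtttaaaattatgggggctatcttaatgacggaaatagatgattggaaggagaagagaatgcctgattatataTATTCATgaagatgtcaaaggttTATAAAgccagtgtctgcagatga
Cga: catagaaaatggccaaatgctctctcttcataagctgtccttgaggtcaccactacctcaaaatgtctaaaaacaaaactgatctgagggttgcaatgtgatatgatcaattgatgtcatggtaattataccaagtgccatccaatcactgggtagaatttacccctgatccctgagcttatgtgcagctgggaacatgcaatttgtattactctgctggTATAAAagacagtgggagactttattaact
Fshb: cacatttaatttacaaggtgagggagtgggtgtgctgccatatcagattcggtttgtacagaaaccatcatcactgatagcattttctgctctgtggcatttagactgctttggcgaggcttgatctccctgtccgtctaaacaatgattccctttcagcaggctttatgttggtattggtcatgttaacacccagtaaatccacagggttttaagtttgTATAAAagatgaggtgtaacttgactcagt
Prl held TATNCAT at 2 places, beginning 148 and 47 bases before the start, while Cga and Fshb had none in these windows. The only other match to TATNCAT among the 8 genes was in Pou1f1, 57 bases before the start and overlapping a TATAAA at 54. Over all 32851 promoters of the table, 7.92% held TATNCAT on either strand. TATAAA stood in a promoter of each of the 8 genes, though not in the further entry of Pou1f1, and in 7.59% of all promoters. It began 24 bases before the start in Prl and 30 bases before it in Cga and in Fshb. In Gnrhr the only match began 121 bases before the start, whereas each of the other genes had a match that began 24 to 33 bases before it. The letters AAGGTCA, a form of the motif of the gonadotroph factor Nr5a1, were in Lhb at 129 and in Pomc at 63 bases before the start, and in 4.08% of all promoters on either strand. TAATCC, a form of the Pitx motif, was in 0 of the 8 and in 6.25% of all. These matches describe letters in the genome reference and say nothing of binding in these mice.

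Prl (ENSMUSG00000021342; GRCm38 chromosome 13, 27057570 to 27065205, plus strand) encodes prolactin, the lactotroph hormone that drives milk production. It had 1 read in the Cx43-deleted library, 684 reads in C57BL6-BALB/c WT and 0 in C57BL6 WT. C57BL6-BALB/c WT alone was high, and the single Cx43-deleted read lay on 51 of the 872 bases of the transcript Prl-201. In C57BL6-BALB/c WT the reads covered 864 of those bases, or 99.1%. The level was 0.0374 in the Cx43-deleted library, 64.9 in C57BL6-BALB/c WT and 0 in C57BL6 WT. Prl was 1738-fold lower in the Cx43-deleted library than in C57BL6-BALB/c WT (310.9 to 68744), a wide interval set by the single read. It was at least 277-fold higher in C57BL6-BALB/c WT than in C57BL6 WT, counting 3 reads as the floor there, and the exact interval of that ratio begins at 225. The second annotated transcript, Prl-202, held the same 684 reads, so the level counts each of them on both transcripts.

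Gh (ENSMUSG00000020713; chromosome 11, 106300271 to 106301865, minus strand) encodes growth hormone of the somatotrophs. Its reads numbered 2 in the Cx43-deleted library, 933 in C57BL6-BALB/c WT and 7 in C57BL6 WT. C57BL6-BALB/c WT stood far above the others, and both of those were low but not empty. The reads covered 11.8% of the 862 bases of its transcript in the Cx43-deleted library, 92.1% in C57BL6-BALB/c WT and 24.6% in C57BL6 WT. Gh was 1185-fold lower in the Cx43-deleted library than in C57BL6-BALB/c WT (327 to 9802) and 7.31-fold lower than in C57BL6 WT (1.39 to 72.1). C57BL6-BALB/c WT was 162-fold above C57BL6 WT (78.4 to 404).

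Cga (ENSMUSG00000028298; chromosome 4, 34893779 to 34907370, plus strand) encodes the alpha subunit shared by thyroid-stimulating, luteinising and follicle-stimulating hormone. It had 19 reads in the Cx43-deleted library, 518 in C57BL6-BALB/c WT and 2 in C57BL6 WT, again high in C57BL6-BALB/c WT alone. Of the 687 bases of the transcript Cga-201, 68.7% had a read in the Cx43-deleted library, 97.7% in C57BL6-BALB/c WT and 13.4% in C57BL6 WT. Cga was 69.3-fold lower in the Cx43-deleted library than in C57BL6-BALB/c WT (43.9 to 116) and 4.55-fold higher than in C57BL6 WT (1.10 to 40.3). C57BL6-BALB/c WT was 315-fold above C57BL6 WT (86.8 to 2608). The annotation places the antisense transcript Platr9 over 44.4% of the exon bases of Cga, and the library kit does not keep the strand. Platr9 had 7 reads in the Cx43-deleted library, 246 in C57BL6-BALB/c WT and 3 in C57BL6 WT, and reads in the shared bases cannot be told apart. All 3 Cga transcripts had the same order of libraries, with Cga-202 at 15 reads in Cx43-deleted, 390 in C57BL6-BALB/c WT and 2 in C57BL6 WT. Cga-203 had 13 reads in Cx43-deleted, 353 in C57BL6-BALB/c WT and 1 in C57BL6 WT. A read counts on each transcript it overlaps, so the 3 transcripts are not separate evidence, and the level of Cga adds their reads.

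**Figure D1:**
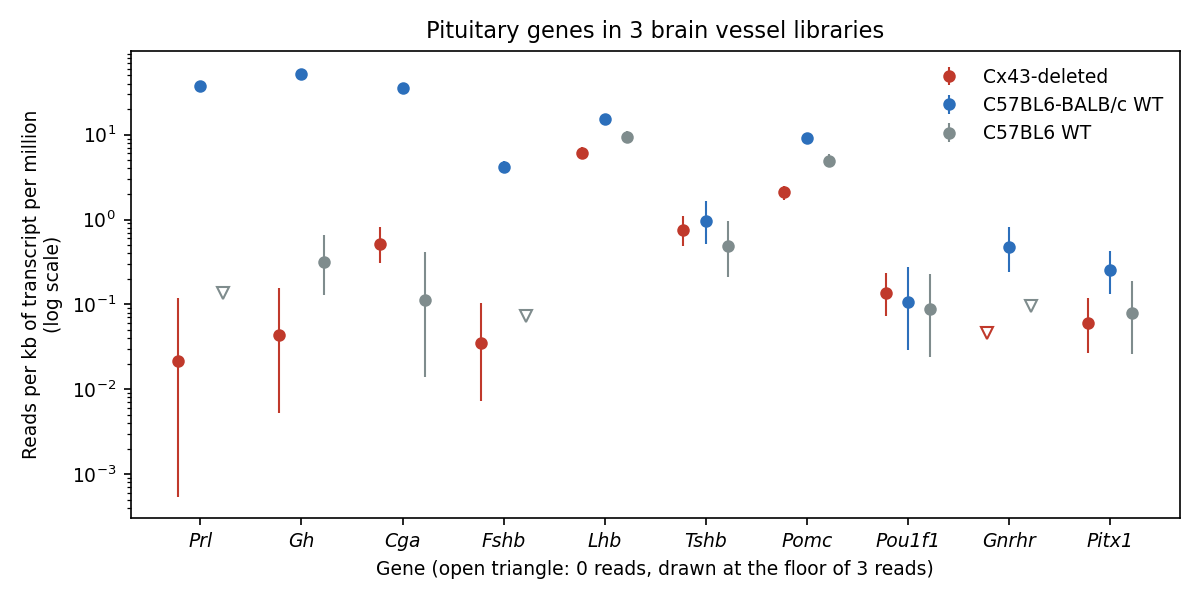
Reads per kb of the most abundant transcript, scaled to library depth as RPKM (log axis), for the 10 pituitary genes in the Cx43-deleted, C57BL6-BALB/c WT and C57BL6 WT libraries, 1 point for each library, with bars for the 95% counting interval and open triangles for 0 reads drawn at the floor of 3 reads. The C57BL6-BALB/c WT points of Prl, Gh and Cga lie between 35.8 and 51.4, while every other point of these genes lies under 1 on this scale, and the intervals of Tshb and Pou1f1 overlap in all 3 libraries.

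The beta subunits, which give each of the glycoprotein hormones its identity, did not share 1 pattern in their reads. Those of Lhb can include reads from an overlapping gene, Ruvbl2, as described below. Fshb (ENSMUSG00000027120; chromosome 2, 107056140 to 107059656, minus strand), the beta subunit of follicle-stimulating hormone, had 3 reads in the Cx43-deleted library, 140 in C57BL6-BALB/c WT and 0 in C57BL6 WT. As for Prl, only C57BL6-BALB/c WT was high, with reads on 90.0% of the 1600 bases of the transcript, against 8.5% in the Cx43-deleted library. Fshb was 119-fold lower in the Cx43-deleted library than in C57BL6-BALB/c WT (39.7 to 582), and C57BL6-BALB/c WT was at least 56.8-fold higher than C57BL6 WT by the floor of 3 reads, with an exact interval that begins at 45.6.

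Lhb (ENSMUSG00000100916; chromosome 7, 45420820 to 45421897, plus strand) is the beta subunit of luteinising hormone. It had 187 reads in the Cx43-deleted library, 181 in C57BL6-BALB/c WT and 138 in C57BL6 WT, which are levels of 3.49 in Cx43-deleted, 8.59 in C57BL6-BALB/c WT and 5.39 in C57BL6 WT. All 3 libraries had it, with reads on 99.3% of its 569 bases in the Cx43-deleted library and on 100% in each WT library. Lhb was 2.46-fold lower in the Cx43-deleted library than in C57BL6-BALB/c WT (1.99 to 3.03) and 1.54-fold lower than in C57BL6 WT (1.23 to 1.93). C57BL6-BALB/c WT was 1.60-fold above C57BL6 WT (1.27 to 2.01). Exons of Ruvbl2, a chromatin remodelling subunit on the other strand, cover 20.4% of the exon bases of Lhb. Ruvbl2 was at levels of 35.7 in the Cx43-deleted library, 33.7 in C57BL6-BALB/c WT and 37.2 in C57BL6 WT, and how many of the Lhb reads come from Ruvbl2 was not tested.

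Tshb (ENSMUSG00000027857; chromosome 3, 102775465 to 102782718, minus strand), the beta subunit of thyroid-stimulating hormone, had 26 reads in the Cx43-deleted library, 13 in C57BL6-BALB/c WT and 8 in C57BL6 WT. Its levels lay close together in the libraries, at 0.486 in Cx43-deleted, 0.617 in C57BL6-BALB/c WT and 0.312 in C57BL6 WT. The ratio of the Cx43-deleted library to C57BL6-BALB/c WT was 0.787 (0.390 to 1.67), its ratio to C57BL6 WT was 1.56 (0.684 to 3.98), and C57BL6-BALB/c WT to C57BL6 WT gave 1.98 (0.759 to 5.50). Each of these intervals spans 1, so no difference was detectable for Tshb at this depth. Its reads covered 83.6% of 645 bases in the Cx43-deleted library, 52.4% in C57BL6-BALB/c WT and 51.8% in C57BL6 WT.

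Pomc (ENSMUSG00000020660; chromosome 12, 3954951 to 3960642, plus strand) encodes pro-opiomelanocortin, the precursor of ACTH, alpha-MSH and beta-endorphin. It had 115 reads in the Cx43-deleted library, 197 in C57BL6-BALB/c WT and 131 in C57BL6 WT. Its levels were 2.15 in Cx43-deleted, 9.35 in C57BL6-BALB/c WT and 5.11 in C57BL6 WT. They were thus lowest in the Cx43-deleted library and highest in C57BL6-BALB/c WT, and no library was near 0. Pomc was 4.35-fold lower in the Cx43-deleted library than in C57BL6-BALB/c WT (3.44 to 5.53) and 2.38-fold lower than in C57BL6 WT (1.84 to 3.08). C57BL6-BALB/c WT was 1.83-fold above C57BL6 WT (1.46 to 2.30). Reads covered 93.3% of the 1031 bases in the Cx43-deleted library, 93.2% in C57BL6-BALB/c WT and 87.1% in C57BL6 WT.

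**Figure D2:**
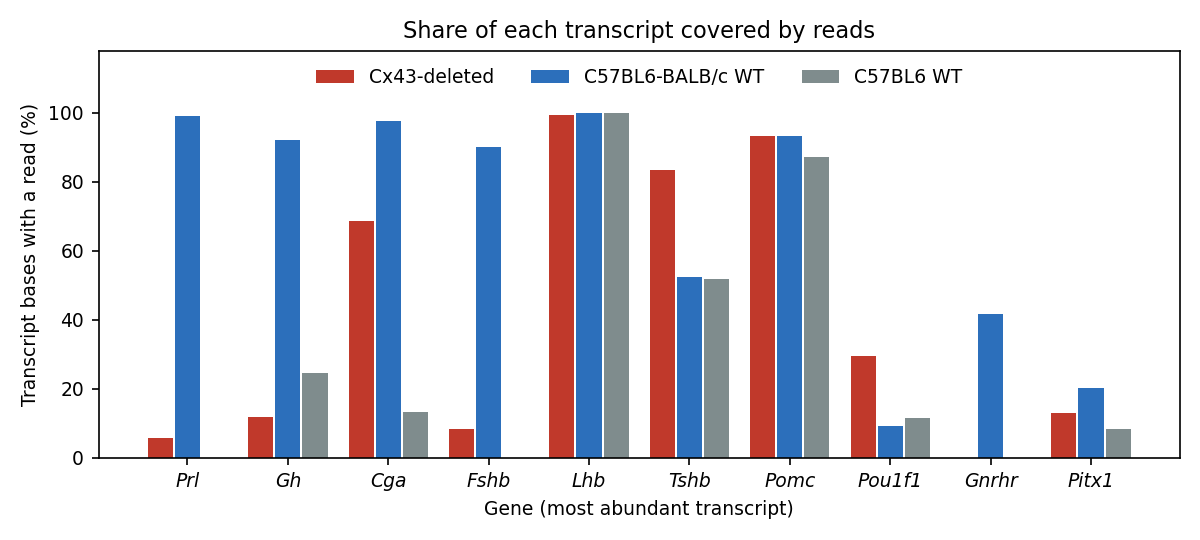
Percent of the bases of the most abundant transcript with at least 1 read, for each pituitary gene, with bars for the Cx43-deleted, C57BL6-BALB/c WT and C57BL6 WT libraries. Prl, Gh and Fshb are covered over 90.0% or more in C57BL6-BALB/c WT and over 24.6% or less in the other libraries, whereas Lhb and Pomc are covered over 87.1% or more in all 3.

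Gnrhr (ENSMUSG00000029255; chromosome 5, 86180754 to 86197901, minus strand) encodes the receptor through which the hypothalamic hormone GnRH acts on gonadotrophs. Its most abundant transcript had 0 reads in the Cx43-deleted library, 12 in C57BL6-BALB/c WT and 0 in C57BL6 WT. The reads of C57BL6-BALB/c WT covered 41.7% of its 1211 bases, and a further transcript, Gnrhr-203, had 1 read in the Cx43-deleted library, 11 in C57BL6-BALB/c WT and 0 in C57BL6 WT. By the floor of 3 reads, which leaves out the counting error of the 12, Gnrhr was at least 10.2-fold lower in the Cx43-deleted library than in C57BL6-BALB/c WT, with an exact interval that begins at 7.06. C57BL6-BALB/c WT was at least 4.87-fold higher than C57BL6 WT by the same floor, with an exact interval that begins at 3.38.

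The lineage factors were near the lower limit of these data. Pou1f1 (ENSMUSG00000004842; chromosome 16, 65520511 to 65535005, plus strand) had 13 reads in the Cx43-deleted library, 4 in C57BL6-BALB/c WT and 4 in C57BL6 WT. The ratio of the Cx43-deleted library to C57BL6-BALB/c WT was 1.28 (0.395 to 5.39), to C57BL6 WT 1.56 (0.481 to 6.55), and that of C57BL6-BALB/c WT to C57BL6 WT 1.22 (0.227 to 6.53). No difference was detectable for Pou1f1 at this depth, since each interval spans 1. Of the stretches of 51 bases in its transcript, 12.8% also occur in transcripts of other genes, which makes its few reads uncertain. Pitx1 (ENSMUSG00000021506; chromosome 13, 55825051 to 55836192, minus strand) had 8 reads in the Cx43-deleted library, 13 in C57BL6-BALB/c WT and 5 in C57BL6 WT. It was 4.13-fold lower in the Cx43-deleted library than in C57BL6-BALB/c WT (1.59 to 11.5), while its ratio to C57BL6 WT was 0.766 (0.221 to 2.98). C57BL6-BALB/c WT was 3.16-fold above C57BL6 WT (1.06 to 11.3). These ratios rest on 13 reads or fewer in each library. Of the stretches of 51 bases in the Pitx1 transcript, 4.79% also occur in Gm47071.

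On a scale that allows genes to be compared, RPKM of the most abundant transcript, the order of the 10 genes differed between the libraries. In the Cx43-deleted library Lhb was first at 6.14 (5.29 to 7.09), then Pomc at 2.08 (1.72 to 2.50), Tshb at 0.753 (0.492 to 1.10) and Cga at 0.517 (0.311 to 0.807). The intervals of Tshb and Cga overlapped, and the remaining genes lay at 0.137 (Pou1f1) or lower, with Gh at 0.0433 and Prl at 0.0214. In C57BL6-BALB/c WT Gh led at 51.4 (48.1 to 54.8), followed by Prl at 37.2 (34.5 to 40.1) and Cga at 35.8 (32.8 to 39.0), whose intervals overlapped.

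Next in C57BL6-BALB/c WT came Lhb at 15.1, Pomc at 9.07 and Fshb at 4.15, each apart from its neighbours. Tshb at 0.957, Gnrhr at 0.470, Pitx1 at 0.252 and Pou1f1 at 0.107 closed the order, and each overlapped with the next. In C57BL6 WT Lhb at 9.46 and Pomc at 4.96 were again first, then Tshb at 0.484 and Gh at 0.317. Tshb and the genes with reads below it overlapped with their neighbours there, and Prl, Fshb and Gnrhr were at 0 reads. The Cx43-deleted and C57BL6 WT libraries thus both had Lhb, Pomc and Tshb as their first 3 genes. The place of Lhb includes any reads that come from Ruvbl2, whose part was not tested.

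On the log2 scale of the level with a pseudocount of 0.5, which understates the difference of low genes, 7 of the 10 genes were 2-fold or more lower in the Cx43-deleted library than in C57BL6-BALB/c WT and 0 were 2-fold or more higher. Over the 16604 measured genes, those whose level reached 1 in some library, 1.02% were lower and 1.05% higher by that much. The log2 ratios were −6.93 for Prl, −6.38 for Gh, −5.45 for Cga, −3.68 for Fshb, −1.99 for Gnrhr, −1.90 for Pomc and −1.19 for Lhb. Pitx1 at −0.78 and Tshb at −0.18 were lower by less, and Pou1f1 was at 0.11. Only 7 genes passed the filter on level, and 5 of them (Prl, Gh, Cga, Fshb and Gnrhr) passed it through C57BL6-BALB/c WT alone. Tshb, Pou1f1 and Pitx1 did not pass it. The level of Gnrhr in C57BL6-BALB/c WT adds 12, 10 and 11 reads on its 3 transcripts, which can be the same reads. Its most abundant transcript alone, with 12 reads, lay below the 21.1 counts of a level of 1 and had a log2 ratio of −1.10.

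Between the Cx43-deleted library and C57BL6 WT, 1 of the 10 genes was 2-fold or more lower (Pomc, log2 ratio −1.08) and 0 were higher, beside 2.76% lower and 1.6% higher among all measured genes. With a pseudocount of 1 the log2 ratio of Pomc was −0.96 and the count 0. Cga had a log2 ratio of 0.99, Lhb −0.56 and Gh −0.52, and the others lay between −0.10 and 0.28. Between C57BL6-BALB/c WT and C57BL6 WT, 5 of the 10 were 2-fold or more higher and 0 lower, beside 1.23% higher and 1.93% lower among all measured genes. Their log2 ratios were 7.03 for Prl, 6.44 for Cga, 5.86 for Gh, 3.84 for Fshb and 2.05 for Gnrhr. The genes were chosen with these contrasts known, so nothing is read from the counts.

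The median log2 ratio of the 10 genes was −1.95 for Cx43-deleted against C57BL6-BALB/c WT, or −2.62 with Gnrhr at its bound, beside −0.003 over all measured genes. For Cx43-deleted against C57BL6 WT it was 0.08, beside −0.02. For C57BL6-BALB/c WT against C57BL6 WT it was 1.43, or 1.55 with Prl, Fshb and Gnrhr at their bounds, beside −0.01. These bounds are folds of the most abundant transcript by the floor of 3 reads, without the pseudocount that the other values carry. Among the 10 genes, Tshb, Pou1f1 and Pitx1 did not pass the filter of the measured genes. The comparison between Cx43-deleted and C57BL6-BALB/c WT and that of C57BL6-BALB/c WT with C57BL6 WT share a library, the one in which these genes were high. Among the 16604 measured genes, Prl, Gh and Cga held places 1, 2 and 3 from the lowest log2 ratio of the Cx43-deleted library to C57BL6-BALB/c WT, with Fshb at 9, Gnrhr at 33, Pomc at 41 and Lhb at 115. The genes were chosen with these values known, so nothing is read from the medians or the places. The levels of Prl, Cga and Gnrhr add reads over their transcripts. On the most abundant transcript the log2 ratios were −5.99 for Prl, −6.38 for Gh, −4.88 for Cga and −1.10 for Gnrhr, so Gh then lay below Prl.

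**Figure D3:**
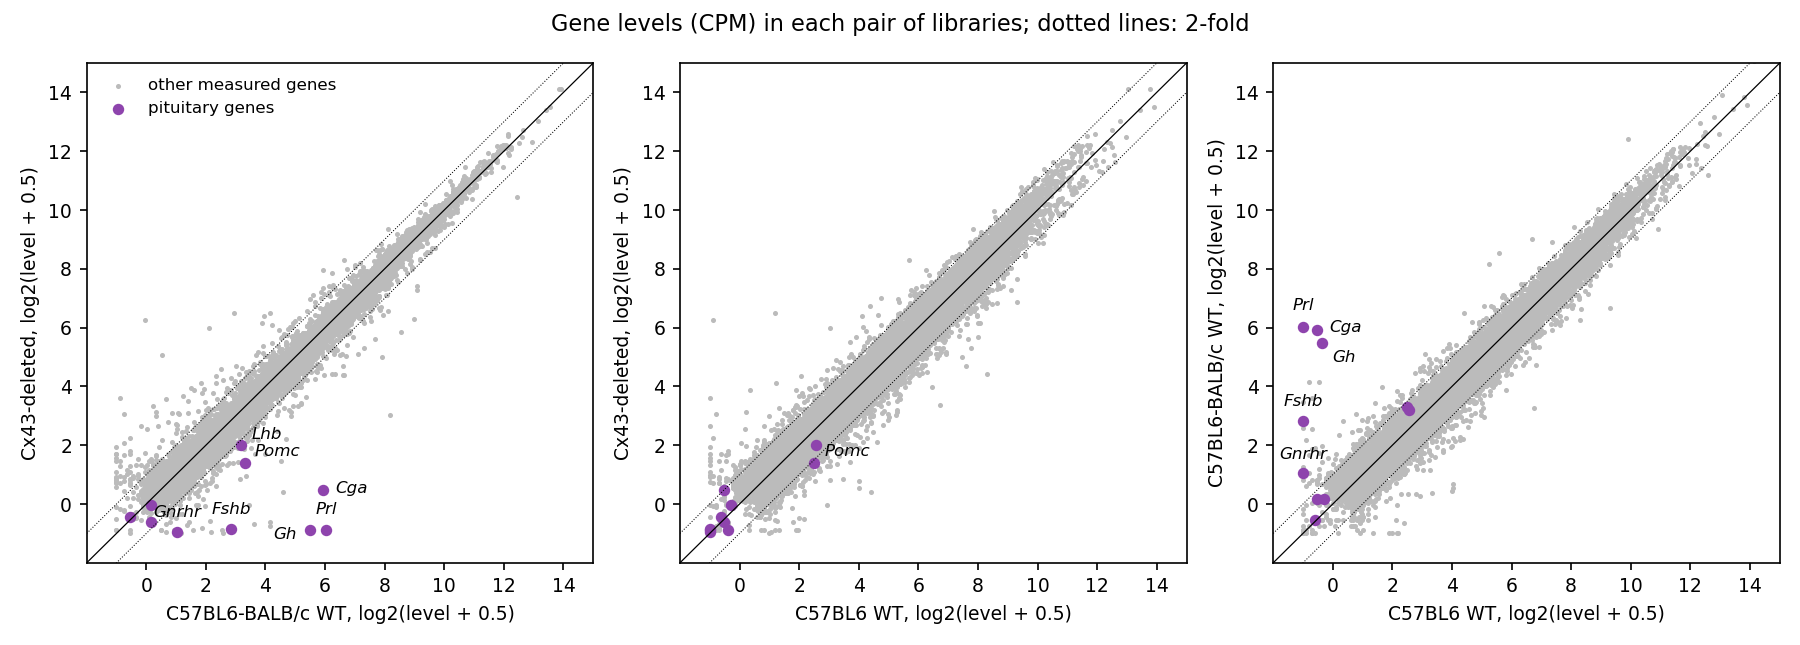
Level of each measured gene as log2(level + 0.5) in each pair of the 3 libraries, with the 10 pituitary genes in purple and dotted lines at a 2-fold difference. Prl, Gh, Cga and Fshb lie far from the line of equal level in both panels that hold C57BL6-BALB/c WT, while in the panel of Cx43-deleted against C57BL6 WT only Pomc is beyond the dotted lines, at a log2 ratio of −1.08.

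The genes whose pattern over the 3 libraries was nearest to that of Prl were sought among 12673 protein-coding genes outside the 10 whose level reached 5 in some library, by the Euclidean distance of centred log2 levels. Genes with predicted or clone-type names were left out of the search. So were ribosomal, immunoglobulin, mitochondrially encoded and pseudogene symbols. Of the 10 genes themselves, Gh was at a distance of 0.832, Cga at 1.05, Fshb at 2.63, Gnrhr at 4.05 and Pou1f1, the farthest, at 5.71. Among the genes searched the nearest was H2-Q10, an MHC class I gene, at 1.89. It had 8 reads in the Cx43-deleted library, 361 in C57BL6-BALB/c WT and 6 in C57BL6 WT. The next among those searched were Fosb, an immediate early transcription factor, at 2.92, and Nlrp1a, an inflammasome sensor, at 2.98. Cwc22, a splicing factor, at 3.40, and Npas4, an activity-dependent transcription factor, at 3.66 came after them. Fosb was at levels of 7.68 in Cx43-deleted, 286 in C57BL6-BALB/c WT and 37.5 in C57BL6 WT, and Npas4 at 77.2 in Cx43-deleted, 512 in C57BL6-BALB/c WT and 103 in C57BL6 WT. The same 5 genes, in the same order, were nearest to Gh. H2-Q10, Nlrp1a and Cwc22 have related copies, some of which differ between mouse strains, so their reads are uncertain, and 3 libraries give this likeness little weight.

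Further pituitary genes did not have log2 ratios as wide as those of Prl and Gh in the comparisons with C57BL6-BALB/c WT. Of 20 further pituitary transcription factors with a matched transcript, 0 were 2-fold or more lower in the Cx43-deleted library than in C57BL6-BALB/c WT and 1, Neurod4, was higher, with a median log2 ratio of 0.07. Between C57BL6-BALB/c WT and C57BL6 WT, 0 of the 20 reached 2-fold in either direction, with a median of −0.07. Among all measured genes, 1.23% were higher and 1.93% lower by that much. For Cx43-deleted against C57BL6-BALB/c WT these shares were 1.05% and 1.02%. At such shares, counts of 0 or 1 in this list and in the shorter lists below say little. Only 13 of the 20 reached a level of 1 in some library. The pseudocount understates the ratios of the others, Tbx19 among them, so the 2-fold counts say little of those. Tbx19, the corticotroph factor that drives Pomc, had 10 reads in Cx43-deleted, 5 in C57BL6-BALB/c WT and 2 in C57BL6 WT. Its levels were 0.187 in Cx43-deleted, 0.237 in C57BL6-BALB/c WT and 0.0780 in C57BL6 WT. Nr5a1, the gonadotroph factor, had 59 reads in Cx43-deleted, 28 in C57BL6-BALB/c WT and 20 in C57BL6 WT. Its levels were 2.52 in Cx43-deleted, 2.90 in C57BL6-BALB/c WT and 1.68 in C57BL6 WT. In level, Tbx19 and Nr5a1 were thus highest in C57BL6-BALB/c WT, on few reads. Many of these 20 genes are also expressed in the brain, among them Sox2 at levels of 23.2 in Cx43-deleted, 32.9 in C57BL6-BALB/c WT and 30.0 in C57BL6 WT.

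Of 10 receptors through which the hypothalamus acts on the gland, 0 reached 2-fold in either comparison with C57BL6-BALB/c WT. A level of 1 in some library was reached by 7 of the 10, and the pseudocount understates the ratios of the others. Ghrhr, the receptor for growth hormone-releasing hormone on somatotrophs, had 0 reads in the Cx43-deleted library, 3 in C57BL6-BALB/c WT and 2 in C57BL6 WT. Avpr1b, the vasopressin receptor of corticotrophs, had 8 reads in Cx43-deleted, 3 in C57BL6-BALB/c WT and 2 in C57BL6 WT. In level this was 0.149 in Cx43-deleted, 0.142 in C57BL6-BALB/c WT and 0.0780 in C57BL6 WT. The summed level of the 10 receptors was 136 in the Cx43-deleted library, 142 in C57BL6-BALB/c WT and 122 in C57BL6 WT. Of the 10, 6 were highest in C57BL6-BALB/c WT, 4 in Cx43-deleted and 0 in C57BL6 WT.

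The 11 genes of hormone processing and secretory granules serve neurons as well as endocrine cells. In level, 10 of them were lower in the Cx43-deleted library than in C57BL6-BALB/c WT, 0 by 2-fold or more, with a median log2 ratio of −0.21. Between C57BL6-BALB/c WT and C57BL6 WT the median was 0.18. Among all measured genes, 50.5% were lower in Cx43-deleted than in C57BL6-BALB/c WT. Of the 11 genes, 8 were highest in C57BL6-BALB/c WT, 1 in Cx43-deleted and 2 in C57BL6 WT. Scg2, a granule protein, was at 120 in the Cx43-deleted library, 210.3 in C57BL6-BALB/c WT and 133 in C57BL6 WT. Chgb, another, was at 193 in Cx43-deleted, 263 in C57BL6-BALB/c WT and 189 in C57BL6 WT. Cpe, a carboxypeptidase that trims prohormones, was at 716 in Cx43-deleted, 830.2 in C57BL6-BALB/c WT and 1076 in C57BL6 WT.

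On the side that receives the hormones, 0 of 9 receptors for pituitary hormones and 0 of 6 genes of prolactin and growth hormone signalling reached 2-fold in any comparison. Of the 9 receptors, 5 reached a level of 1 in some library, and the pseudocount understates the ratios of the others. Prlr, the prolactin receptor, was at 73.9 in the Cx43-deleted library, 52.2 in C57BL6-BALB/c WT and 98.5 in C57BL6 WT, lowest in the library with the Prl reads. Prlr is a gene of the choroid plexus among other tissues, and the 8 choroid plexus markers, summed, had the same order of libraries at 4619 in Cx43-deleted, 3495 in C57BL6-BALB/c WT and 8696 in C57BL6 WT. Ghr, the growth hormone receptor, was at 36.0 in Cx43-deleted, 37.4 in C57BL6-BALB/c WT and 47.1 in C57BL6 WT. Among the signalling genes, Socs2, a feedback inhibitor of the receptors, was at 53.5 in Cx43-deleted, 58.8 in C57BL6-BALB/c WT and 40.8 in C57BL6 WT.

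Markers of other tissues were summed beside these genes, and their part in the results was not tested. The 15 hypothalamic neuropeptide genes summed to 129 in the Cx43-deleted library, 150 in C57BL6-BALB/c WT and 141 in C57BL6 WT, with 0 genes at 0 reads in any library and 0 at 2-fold. Sst, which restrains somatotrophs, was at 69.5 in Cx43-deleted, 85.0 in C57BL6-BALB/c WT and 78.9 in C57BL6 WT. Trh, which acts on thyrotrophs and lactotrophs, was at 7.81 in Cx43-deleted, 8.21 in C57BL6-BALB/c WT and 9.05 in C57BL6 WT. Of the 8 choroid plexus genes, all were lowest in C57BL6-BALB/c WT, and 7 were 2-fold or more lower there than in C57BL6 WT.

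The 8 brain endothelium genes summed to 7299 in the Cx43-deleted library, 6643 in C57BL6-BALB/c WT and 10442 in C57BL6 WT. Of them, 5 were lower in Cx43-deleted than in C57BL6-BALB/c WT (median log2 ratio −0.16), while Slc2a1, the glucose transporter, was higher at 2834 in Cx43-deleted, against 1664 in C57BL6-BALB/c WT. Against C57BL6 WT, 3 of the 8 were 2-fold or more lower in Cx43-deleted, among them Cldn5, a tight junction protein, at 467 in Cx43-deleted, 533 in C57BL6-BALB/c WT and 1154 in C57BL6 WT. For the 6 mural cell genes the sums were 2618 in Cx43-deleted, 3441 in C57BL6-BALB/c WT and 3619 in C57BL6 WT, and for the 6 neuron genes 3058 in Cx43-deleted, 3289 in C57BL6-BALB/c WT and 2671 in C57BL6 WT. Of the mural genes 3 were highest in C57BL6-BALB/c WT, those of the smooth muscle proteins Acta2, Myh11 and Tagln, with log2 ratios of −0.97, −0.87 and −0.86 for Cx43-deleted against it and 0.53, 0.72 and 0.47 for C57BL6-BALB/c WT against C57BL6 WT. Leptomeningeal genes, 6 in number, summed to 17806 in Cx43-deleted, 15003 in C57BL6-BALB/c WT and 14341 in C57BL6 WT, and 3 pineal genes to 20.5 in Cx43-deleted, 17.3 in C57BL6-BALB/c WT and 17.7 in C57BL6 WT. The 4 spermatid genes, a tissue with no place in the sample, summed to 5.96 in Cx43-deleted, 0.522 in C57BL6-BALB/c WT and 0.0780 in C57BL6 WT. Prm1 made up most of the Cx43-deleted sum, and Tnp1 was at 0 in all 3 libraries. Of these 8 sums, only those of hypothalamic neuropeptides and neurons were highest in C57BL6-BALB/c WT.

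**Figure D4:**
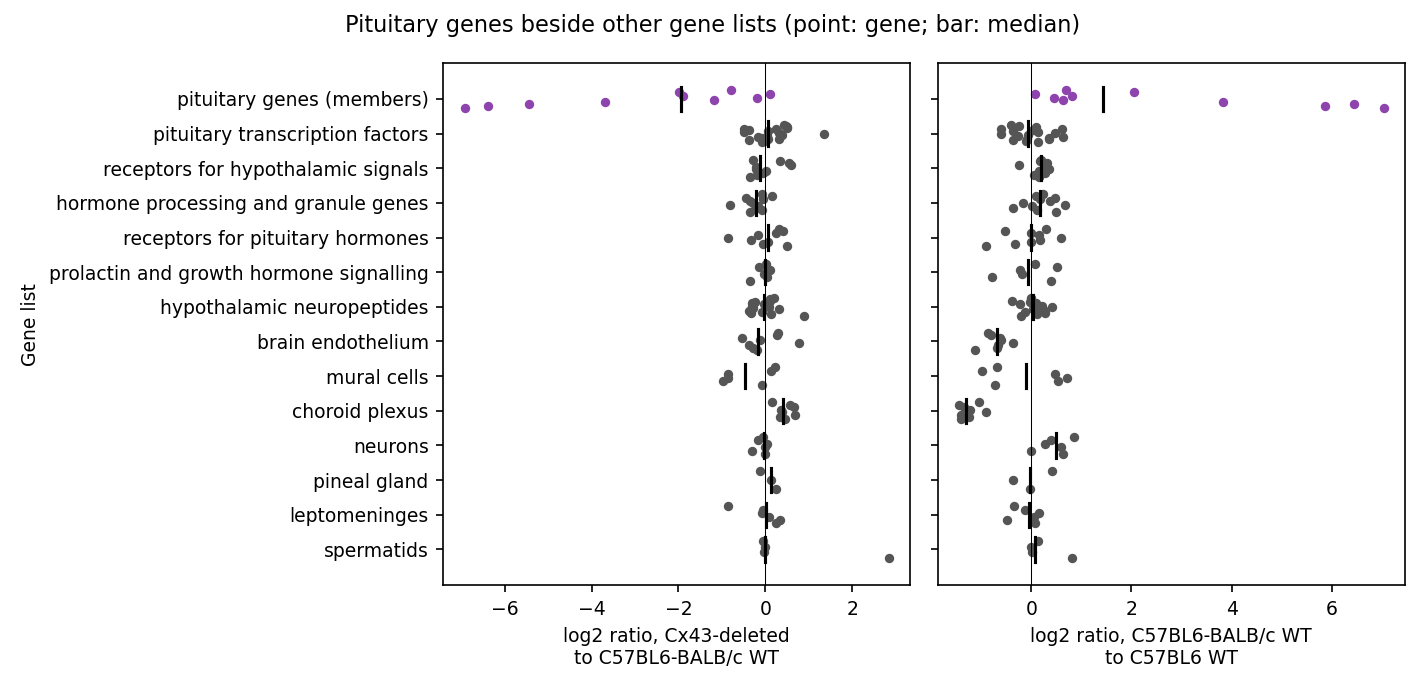
Log2 ratio of each gene, 1 point for each gene with the list's median as a bar, for Cx43-deleted against C57BL6-BALB/c WT on the left and C57BL6-BALB/c WT against C57BL6 WT on the right. The pituitary genes reach −6.93 on the left and 7.03 on the right, and every gene of the other lists lies within 3 log2 units of 0.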

How the data were processed

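The authors deposited 1 table for each library, with an unnormalised whole-number count of reads for each of 82813 Ensembl transcripts, per the file headers. A further deposited column gives each count as a fraction of the library total, from which the totals were recovered. The length of each transcript and its number of bases with no read were also used. CASAVA 1.8.2 and Bowtie are named in the submitters' processing notes, with the build mm10. Not given in the sources used here were the program that counted the reads, its annotation release and its handling of multiply matching reads. Reads were counted on each transcript they overlap, since the counts sum to 2.55 times the total in Cx43-deleted, 2.53 times in C57BL6-BALB/c WT and 2.45 times in C57BL6 WT, and the kit named in the labels' protocols (TruSeq v2) keeps no strand.

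Coordinates in the tables run past the last gene of chromosome 1 in the GRCm38 annotation and were left aside. All names and positions come from GENCODE M21 on GRCm38, joined by transcript identifier: 69379 of 82813 (83.8%) matched, and 217 of these, on another chromosome than in the tables, were left out. The lengths behind coverage are those of the tables and can differ from the annotation, as for Lhb (569 and 678 exon bases).

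The counts of all transcripts of a gene were added and scaled by the product of library total and TMM factor (0.974 for Cx43-deleted, 0.995 for C57BL6-BALB/c WT and 1.03 for C57BL6 WT; edgeR 4.0.16, R 4.3.3), giving a level in CPM. Log2 ratios had a pseudocount of 0.5. Measured genes, 16604 of 29787, reached a level of 1 in some library, and 1 is 53.5 counts in Cx43-deleted, 21.1 in C57BL6-BALB/c WT and 25.6 in C57BL6 WT. Folds used only the reads on a gene's most abundant transcript, with exact binomial 95% intervals, and levels per kb had exact Poisson intervals (Python 3.11.15, scipy 1.17.1, numpy 2.4.6, pandas 2.3.3, matplotlib 3.10.9). The floor for 0 reads was 3 reads per library, a level of 0.0560 in Cx43-deleted, 0.142 in C57BL6-BALB/c WT and 0.117 in C57BL6 WT. Reads carry no molecular identifiers.

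With 1 library per group no test was possible and no p-value is given. The steps were run on simulated Poisson counts with planted changes. Those counts hold no variation between animals, so they check the calculation and not the differences reported here. The 10 genes and the 13 gene lists were chosen with earlier results of these data known. Named were all 10 genes, up to 4 genes of highest level in each list, and any list gene 2-fold or more from both other libraries. Further list genes were named after their values were seen: Tbx19, Nr5a1, Ghrhr, Avpr1b, Neurod4, Avp and Tagln. For likeness, the 5 protein-coding genes nearest to Prl and to Gh were named. Genes with predicted or clone-type names, and ribosomal, immunoglobulin, mitochondrially encoded and pseudogene symbols, were left out there. Six3, Mc5r and Asmt, also in the lists, were not analysed here. Alternatives were other scalings, pseudocounts of 0.1 and 1, no filter or a level of 5, and the most abundant transcript in place of the sum.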

Additional observations from a re-analysis of the deposited data

How the results depend on the processing

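The log2 ratios of the 10 genes kept their direction in all 3 comparisons under the 7 alternatives, or under 6 for Tshb, Pou1f1, Gnrhr and Pitx1, which do not reach a level of 5, except Gnrhr between Cx43-deleted and C57BL6 WT, which was 0 in both on its most abundant transcript. For Cx43-deleted against C57BL6-BALB/c WT they ranged from −8.89 to −5.99 for Prl, −8.34 to −5.45 for Gh, −5.94 to −4.88 for Cga, −5.43 to −2.86 for Fshb, −3.81 to −1.10 for Gnrhr, −2.07 to −1.72 for Pomc and −1.27 to −1.09 for Lhb. Of the counts of members and of all genes, 78 stayed within 1.5 times and 6 did not. With a pseudocount of 0.1, 1 of the 10 genes was 2-fold or more higher in Cx43-deleted than in C57BL6 WT and 2 were lower, and 316 of all genes were higher in C57BL6-BALB/c WT than in C57BL6 WT, against 204 with 0.5. With a pseudocount of 1, 0 of the 10 were lower in Cx43-deleted than in C57BL6 WT. With a level of 5 required, 112 genes were higher in Cx43-deleted than in C57BL6-BALB/c WT and 127 in C57BL6-BALB/c WT than in C57BL6 WT, since fewer genes were counted. With scaling by the library total alone, the median log2 ratio of all genes was −0.098 for Cx43-deleted against C57BL6 WT and nearer to 0 in the other comparisons.

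No paired analysis was possible because each group has 1 library. Depth limits Tshb, Pou1f1, Pitx1 and Gnrhr, with 26 reads or fewer in each library, and the folds of Prl, Gh and Fshb, whose lower libraries hold 0 to 7 reads.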

Other observations

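The genes of the lists differed in which library was highest, and Neurod4, Avp and Prm1 are examples of those highest in the Cx43-deleted library. Neurod4, a basic helix-loop-helix factor of the pituitary and of neurons, had 145 reads in the Cx43-deleted library, 16 in C57BL6-BALB/c WT and 36 in C57BL6 WT, with log2 ratios of 1.35 to C57BL6-BALB/c WT and 0.75 to C57BL6 WT. Avp, the gene of vasopressin, had 212 reads in the Cx43-deleted library, 40 in C57BL6-BALB/c WT and 58 in C57BL6 WT, with log2 ratios of 0.90 to C57BL6-BALB/c WT and 0.69 to C57BL6 WT. Prm1, a sperm nuclear protein, had 313 reads in the Cx43-deleted library, 8 in C57BL6-BALB/c WT and 0 in C57BL6 WT.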
